A study of Rattus norvegicus with 6 samples.

Results

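Fatty acid uptake, binding and activation were followed in rat intervertebral disc through 10 genes: the binding proteins Fabp4, Fabp5 and Fabp3, the lipase Lpl with its anchor Gpihbp1, the uptake proteins Cd36, Slc27a1 and Slc27a6, the acyl-CoA synthetase Acsl1 and the glycerol channel Aqp7. They were chosen by name, so as to set isoforms known from adipocytes beside those known from muscle. The choice was made with earlier results of these data known. The paper reports Fabp4, Lpl, Acsl1, Aqp7 and Slc27a6 as increased in the treated discs. Each of the 10 genes was looked up by the gene name in the deposited count table. Of the 10 genes, 9 were found among the 30562 genes of the table, and all 9 were among the 15537 genes that passed the filter on low counts and were tested. Cd36 matched no gene name and was not analysed here.

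Fatty acids reach cells bound to albumin or inside the triglyceride of lipoproteins, which lipoprotein lipase splits at the capillary wall where Gpihbp1 holds it. Membrane proteins such as Cd36 and the Slc27a family promote entry, cytosolic binding proteins of the Fabp family carry the acids, and long-chain acyl-CoA synthetases couple them to coenzyme A, the step that commits them to storage or oxidation. Fat cells are rich in Fabp4, Lpl, Acsl1 and Aqp7, heart and skeletal muscle in Fabp3, and the disc itself has vessels only near its outer edge.

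Bulk RNA was measured in 6 libraries of disc tissue from wild-type (WT) male Sprague-Dawley rats, 12 weeks of age, with 3 libraries labelled Control and 3 labelled AF-PTK@LEV@SPP1. In both groups a tail disc had been punctured with a needle, and injections into the disc began 24 h later in an experiment of 8 weeks. Control discs received PBS, and the others received 10 μL of AF-PTK@LEV@SPP1 holding 1 mg/kg of siRNA, a vesicle of liposome and bacterial outer membrane that bears a peptide for the annulus fibrosus on a linker cut by reactive oxygen species and carries siRNA against Spp1. The sample labels differ from this account: they name an untreated control, a treatment of 14 days, and macrophages sorted from discs of mice. AF replicates 1, 2 and 3 below are the libraries with the label AF-PTK@LEV@SPP1.

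The libraries held 15560728 to 17942989 counts. Levels are given as normalized CPM, counts relative to the library's total after TMM scaling in edgeR, and 3 counts, or 0.156 to 0.197 normalized CPM, were taken as the smallest measurable level, which covers counting error only. Spp1, which the siRNA is directed against, stood at 8222, 4499 and 4496 normalized CPM in Control replicates 1, 2 and 3, and at 8146, 6955 and 8537 in AF replicates 1, 2 and 3. Its level was not lower in the AF libraries (log2 fold change 0.31 ± 0.37 (SE), edgeR adjusted p = 0.628; log2 fold change 0.81 without Control replicate 1), so that every direction below is relative to the labels alone.

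Control replicates 2 and 3 were nearly identical. Counting only genes that reached 20 counts, the chi-square between them was 1.33 per gene and 0.111% of genes differed, against 51.3 to 107 per gene and 39.6% to 56.6% of genes in the 5 other pairs within a group. Because they differed by little more than sampling noise, they were summed and counted as 1 sample, which leaves 2 distinct Control samples against 3 AF samples. Means and SDs below are over these 5 samples, log2 fold changes and adjusted p are from edgeR's quasi-likelihood test on them, and the fit of all 6 libraries is named where it changes a call.

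Most of the fatty acid genes had higher levels in the AF libraries, led by Aqp7 and Fabp4. Slc27a1 had similar levels in both groups, and Fabp5 was high in AF replicate 1 alone. Fabp3 varied among the AF libraries, and its Control values lay inside the AF range. No gene of the 9 passed the test at an adjusted p under 0.05 with 5 samples. The log2 fold change was positive in 8 of the 9 genes and above 1 in 6, with a median of 1.30 beside 0.05 over all genes tested, and the median was 2.03 without Control replicate 1. In bulk samples, more cells of a type and more RNA per cell cannot be told apart.

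With edgeR on 5 samples, 0 of the 9 genes were called higher, beside 1.13% of all genes tested, and 0 were called lower, beside 2.57%. At an unadjusted p under 0.05 there were 5 higher, Fabp4, Gpihbp1, Slc27a6, Acsl1 and Aqp7, beside 12.4% of all genes, and 0 lower, beside 13%. DESeq2 called the same 5 genes higher, beside 6.65% of its genes, and 0 lower, beside 8.75%. limma-voom called 0 higher, beside 0.895%, and 0 lower, beside 2.03%. With edgeR on 6 libraries, Gpihbp1 and Slc27a6, 2 of the 9 genes, were called higher, beside 8.2%, and 0 were called lower, beside 9.93%. In 6 of the 9 genes every AF sample lay above every Control sample, beside 23.4% of all genes tested. In 0 every AF sample lay below, beside 22.3%. Chance alone gives a share of 0.1 in each direction for a gene chosen without regard to these data. The paper had already reported Fabp4, Lpl, Slc27a6, Acsl1 and Aqp7 as increased in these data. The counts of the 9 genes beside these shares are therefore a description and no test.

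Over the whole table, edgeR on 5 samples called 175 genes higher and 400 lower in the AF libraries. These counts were 65 and 215 without Control replicate 1, and 30 and 83 without AF replicate 1. Without AF replicate 2 they were 0 and 0, with 1528 higher and 1581 lower at an unadjusted p under 0.05, and without AF replicate 3 they were again 0 and 0, with 1296 and 1403 at an unadjusted p under 0.05. No other tool was run without these libraries.

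**Figure D1:**
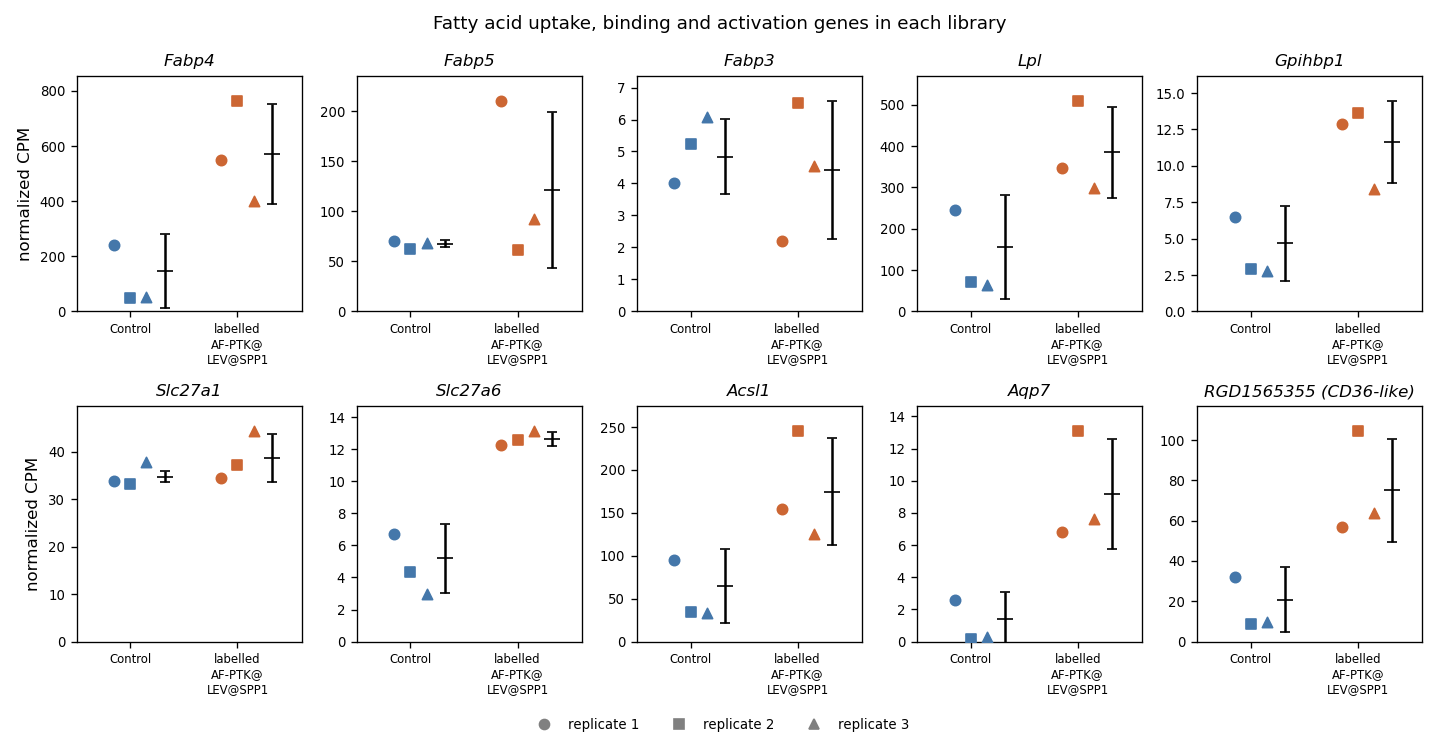
Normalized CPM of the 9 fatty acid genes and of the CD36-like gene RGD1565355 in each of the 6 libraries, on linear axes that start at 0. Circles, squares and triangles are replicates 1, 2 and 3, and the black marks are the mean and SD over 2 distinct Control and 3 AF samples. Fabp4 runs from 48.2 in Control replicate 2 to 763 in AF replicate 2, with Control replicate 1 between the other Control libraries and the AF libraries.

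Fabp4, the binding protein of adipocytes and of some macrophages and endothelial cells, had 242, 48.2 and 53.4 normalized CPM in Control replicates 1, 2 and 3, and 550, 763 and 401 in AF replicates 1, 2 and 3. The AF samples were all above the Control samples, and Control replicate 1 stood 4.75-fold above the mean of the other Control libraries. The mean was 146 ± 135 (SD, n = 2) in Control and 571 ± 182 (SD, n = 3) in AF, and the log2 fold change was 1.97 ± 0.72 (SE), with a 95% interval of 0.15 to 3.79 and an edgeR adjusted p of 0.175. Without Control replicate 1 the log2 fold change was 3.48. DESeq2 gave Fabp4 an adjusted p of 0.0227, and over all alternatives its adjusted p ran from 0.0227 to 0.315.

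Fabp5, the epidermal type that macrophages, endothelium and fat also express, had 70.0, 62.6 and 68.8 normalized CPM in Control replicates 1, 2 and 3, and 210, 61.8 and 92.5 in AF replicates 1, 2 and 3. The groups overlapped: AF replicate 1 was high, and AF replicate 2 was as low as the Control libraries. The log2 fold change was 0.84 ± 0.54 (SE), with a 95% interval of -0.52 to 2.19 and an edgeR adjusted p of 0.373, and it was 0.15 without AF replicate 1. RefSeq names pseudogenes of Fabp5, and reads that such copies share with it could have been counted on either.

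Fabp3, the binding protein of heart and skeletal muscle, was low, with 77, 80 and 98 counts in Control replicates 1, 2 and 3, and 37, 107 and 79 counts in AF replicates 1, 2 and 3. In normalized CPM it had 4.003, 5.25 and 6.09 in Control, and 2.20, 6.50 and 4.54 in AF. The lowest and the highest library were both AF libraries, so that the Control values lay inside the AF range. The log2 fold change was -0.14 ± 0.48 (SE), with a 95% interval of -1.36 to 1.09 and an edgeR adjusted p of 0.883. Its sign turned without AF replicate 1, to 0.15, and it was -0.52 without AF replicate 2 and -0.37 without Control replicate 1. The gene overlaps Zcchc17 on the opposite strand, and whether strand was used in counting was not given in the sources used here, so that reads of the overlap cannot be told apart.

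Fabp4 and Fabp5 lie near each other on chromosome 2 of the table, at chr2:91580885-91585578 (+) and chr2:91765056-91853773 (-), with Fabp12, Fabp9 and Pmp2 beside them; the build of these coordinates was not given in the sources used here. Few other genes of the family were measurable in these libraries. Of the 7 other Fabp family genes listed, 1 was tested, Pmp2, the binding protein of myelin-forming cells, and Fabp1, Fabp6, Fabp7 and Fabp9 had at most 3 counts in any library. Pmp2 had 1.51, 0.459 and 0.497 normalized CPM in Control replicates 1, 2 and 3, and 0.892, 29.8 and 31.5 in AF replicates 1, 2 and 3. It was high in AF replicates 2 and 3 alone, and AF replicate 1 lay within the Control range. Its log2 fold change was 4.44 ± 1.602 (SE), with an edgeR adjusted p of 0.171 and a DESeq2 adjusted p of 0.0342, in a range of 0.0342 to 0.478 over all alternatives.

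Lpl, which releases fatty acids from lipoprotein triglyceride, had 245, 70.8 and 64.0 normalized CPM in Control replicates 1, 2 and 3, and 347, 508 and 299 in AF replicates 1, 2 and 3. The AF samples were all above the Control samples, and Control replicate 1 was again nearer to them than to its own group. The mean was 156 ± 125 (SD, n = 2) in Control and 384 ± 110 (SD, n = 3) in AF. The log2 fold change was 1.30 ± 0.59 (SE), with a 95% interval of -0.20 to 2.80 and an edgeR adjusted p of 0.241, and it was 2.51 without Control replicate 1.

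Gpihbp1, which capillary endothelium makes to hold the lipase, had 125, 44 and 45 counts in Control replicates 1, 2 and 3, and 216, 224 and 146 in AF replicates 1, 2 and 3. These are 6.50, 2.89 and 2.80 normalized CPM in Control, and 12.8, 13.6 and 8.40 in AF. All AF samples were above all Control samples, with AF replicate 3 the nearest to Control replicate 1. The log2 fold change was 1.32 ± 0.43 (SE), with a 95% interval of 0.23 to 2.42 and an edgeR adjusted p of 0.147, and it was 2.03 without Control replicate 1. With 6 libraries edgeR gave an adjusted p of 0.0456. DESeq2 on 5 samples gave an adjusted p of 0.0425, in a range of 0.0425 to 0.282 over all alternatives.

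Of 18 listed partners and regulators of the lipase, 16 were tested, with 8 positive log2 fold changes and a median of -0.04, which ran from -0.35 without AF replicate 1 to 0.09 without AF replicate 2. edgeR on 5 samples called 0 higher, with 1 at an unadjusted p under 0.05, 1 with 6 libraries, 0 with DESeq2 and 0 with limma-voom. It called 2 lower, the apolipoproteins Apoe and Apoc1, which sit on lipoproteins, with 6 lower at an unadjusted p under 0.05, 5 with 6 libraries, 5 with DESeq2 and 1 with limma-voom. Apoe was called lower by each of these tools, and Apoc1 by all but limma-voom. Apoc3 had 6, 0 and 0 counts in the Control libraries and 11, 7 and 23 in the AF libraries. It passed the filter through AF libraries alone. Angptl8 had 16, 45 and 45 counts in the Control libraries and 5, 6 and 0 in the AF libraries. It passed through Control libraries alone, as did Apoc1. The signs of Apoc3, Angptl8 and Apoc1 follow from the filter. Apoe fell from 2029, 1697 and 1728 normalized CPM in Control replicates 1, 2 and 3 to 429, 369 and 291 in AF replicates 1, 2 and 3, in 3 of 3 AF samples. Its log2 fold change was -2.37 ± 0.23 (SE), with an edgeR adjusted p of 0.0212 that became 0.0513, 0.0816 and 0.136 without AF replicate 1, 2 and 3. Apoc1 had 23, 14 and 19 counts in Control replicates 1, 2 and 3, and 2, 3 and 2 counts in AF replicates 1, 2 and 3. The AF libraries were all at or under the smallest measurable level, so that no fold is given, and the edgeR adjusted p of 0.0402 was 0.0543 with limma-voom, in a range of 0.00486 to 0.162 over all alternatives, and became 0.106 without Control replicate 1, and 0.0814, 0.0994 and 0.162 without AF replicate 1, 2 and 3.

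Slc27a1, a fatty acid transport protein of skeletal muscle and fat, had 33.9, 33.3 and 37.8 normalized CPM in Control replicates 1, 2 and 3, and 34.5, 37.3 and 44.3 in AF replicates 1, 2 and 3. The groups overlapped and the libraries were close to each other, with a spread far under that of Fabp4, Lpl and Gpihbp1. Fitted over the 5 samples, the log2 fold change was 0.15 ± 0.14 (SE), with a 95% interval of -0.20 to 0.51 and an edgeR adjusted p of 0.527, and it was 0.05 without AF replicate 3. It overlaps Nxnl1 on the opposite strand, with the same limit as for Fabp3.

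Slc27a6, a transport protein best known from heart, had 129, 66 and 48 counts in Control replicates 1, 2 and 3, and 206, 207 and 228 in AF replicates 1, 2 and 3. In normalized CPM these are 6.71, 4.33 and 2.98 in Control, and 12.2, 12.6 and 13.1 in AF. The AF libraries stood together, at 12.6 ± 0.434 (SD, n = 3), and above all Control libraries, which averaged 5.18 ± 2.16 (SD, n = 2). In edgeR the log2 fold change was 1.30 ± 0.30 (SE), with a 95% interval of 0.55 to 2.05 and an edgeR adjusted p of 0.0800, the lowest of the 9 genes. With 6 libraries edgeR gave an adjusted p of 0.0244. DESeq2 on 5 samples gave an adjusted p of 0.00291, in a range of 0.00291 to 0.230 over all alternatives.

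RGD1565355, which the table describes as similar to fatty acid translocase CD36, was read beside the 9 genes and not counted among them. The RefSeq table of assembly GRCr8 gives this name as a synonym of Cd36l1, a gene next to Cd36. Cd36 itself matched no gene name in the deposited counts. Reads of Cd36 could therefore have been counted on RGD1565355, and the values of RGD1565355 are uncertain. It had 32.2, 8.92 and 9.94 normalized CPM in Control replicates 1, 2 and 3, and 57.0, 104 and 63.9 in AF replicates 1, 2 and 3. The AF samples were all above the Control samples, and Control replicate 1 was the highest Control library. Between the groups, the log2 fold change was 1.86 ± 0.60 (SE), with an edgeR adjusted p of 0.142 that was 0.0463 with 6 libraries and 0.0135 with DESeq2, in a range of 0.0135 to 0.276 over all alternatives, and the log2 fold change was 2.99 without Control replicate 1.

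Of 11 other genes listed for fatty acid transport, 9 were tested, with 5 positive log2 fold changes and a median of 0.24, which ran from -0.04 without AF replicate 1 to 0.31 without AF replicate 2. edgeR on 5 samples called 0 of them in either direction, with 3 higher and 1 lower at an unadjusted p under 0.05. The counts were 1 higher and 1 lower with 6 libraries, 0 higher and 1 lower with DESeq2, and 0 and 0 with limma-voom. Slc27a5, 1 of the 3, had 3, 1 and 1 counts in the Control libraries, and 10, 8 and 11 in the AF libraries. It passed the filter through AF libraries alone, so that its positive sign follows from the filter. Cav1, the caveolar coat protein and the gene of this list with most counts, had 460, 671 and 669 normalized CPM in Control replicates 1, 2 and 3, and 915, 542 and 555 in AF replicates 1, 2 and 3. The groups overlapped, with AF replicate 1 the highest library and Control replicate 1 the lowest. Its log2 fold change was 0.25 ± 0.32 (SE), with an edgeR adjusted p of 0.662, and it turned to -0.0734 without AF replicate 1 and to -0.0019 without Control replicate 1.

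Acsl1, the main long-chain acyl-CoA synthetase of fat, had 95.4, 34.1 and 33.7 normalized CPM in Control replicates 1, 2 and 3, and 154, 245 and 125 in AF replicates 1, 2 and 3. The AF samples were all above the Control samples, again with Control replicate 1 between the groups. The mean was 64.7 ± 43.5 (SD, n = 2) in Control and 175 ± 62.5 (SD, n = 3) in AF. Fitted over the 5 samples, the log2 fold change was 1.44 ± 0.53 (SE), with a 95% interval of 0.09 to 2.79 and an edgeR adjusted p of 0.179, and it was 2.36 without Control replicate 1. DESeq2 gave Acsl1 an adjusted p of 0.0470, in a range of 0.0470 to 0.327 over all alternatives.

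Of 20 other listed genes of acyl-CoA synthesis, hydrolysis and binding, 16 were tested, with 10 positive log2 fold changes and a median of 0.10, which was 0.19 without AF replicate 3. edgeR on 5 samples called 0 higher, with 4 at an unadjusted p under 0.05, 2 with 6 libraries, 1 with DESeq2 and 0 with limma-voom. It called 1 lower, Acsl4, the synthetase that prefers arachidonic acid, with 2 lower at an unadjusted p under 0.05, 2 with 6 libraries, 2 with DESeq2 and 1 with limma-voom. Acsl4 was called lower by each of these tools. Acsm5, 1 of the 4 higher at an unadjusted p under 0.05, had 5, 1 and 0 counts in the Control libraries. It had 20, 20 and 14 counts in the AF libraries. It passed the filter through AF libraries alone, so that its positive sign follows from the filter. Acsl4 fell from 86.2, 87.3 and 86.8 normalized CPM in Control replicates 1, 2 and 3 to 37.2, 51.2 and 43.4 in AF replicates 1, 2 and 3, in 3 of 3 AF samples. Its log2 fold change was -0.98 ± 0.16 (SE), with an edgeR adjusted p of 0.0426 that became 0.101 without Control replicate 1, and 0.0687, 0.0816 and 0.177 without AF replicate 1, 2 and 3. Acsl1 and Acsl4 thus had log2 fold changes of opposite sign; the difference between them was not tested.

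Aqp7, the channel through which fat cells release glycerol, had 50, 2 and 5 counts in Control replicates 1, 2 and 3, and 115, 215 and 132 in AF replicates 1, 2 and 3. These are 2.60, 0.131 and 0.311 normalized CPM in Control, and 6.84, 13.1 and 7.59 in AF, and Control replicate 2 was under the smallest measurable level. The AF samples were all above the Control samples, and Control replicate 1 stood above the other Control libraries, whose counts are too few for a fold. In edgeR the log2 fold change was 2.75 ± 0.99 (SE), with a 95% interval of 0.25 to 5.26 and an edgeR adjusted p of 0.171, and it was 5.32 without Control replicate 1, a value that rests on the 2 and 5 counts of the other Control libraries. DESeq2 gave Aqp7 an adjusted p of 0.0251, in a range of 0.0251 to 0.318 over all alternatives.

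Of 6 other listed genes of glycerol channels and of glycerol and glycerol phosphate metabolism, 5 were tested, with 3 positive log2 fold changes and a median of 0.70, which ran from 0.27 without Control replicate 1 to 1.06 without AF replicate 1. edgeR on 5 samples called 0 of them in either direction, as did edgeR with 6 libraries, DESeq2 and limma-voom, and 0 had an unadjusted p under 0.05. Gpd1, which makes glycerol phosphate for triglyceride and has most counts of this list, had 47.4, 5.51 and 5.90 normalized CPM in Control replicates 1, 2 and 3, and 91.8, 167 and 65.3 in AF replicates 1, 2 and 3. It had the same order of samples as Acsl1, and its log2 fold change was 2.04 ± 0.95 (SE), with an edgeR adjusted p of 0.251, and 4.24 without Control replicate 1.

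Of 10 listed regulators, nuclear receptors and other transcription factors known to act on these genes, all 10 were tested, with 6 positive log2 fold changes and a median of 0.32, which was 0.21 without AF replicate 2. edgeR on 5 samples called 0 of them in either direction, with 2 higher and 1 lower at an unadjusted p under 0.05, 2 and 1 with 6 libraries, 2 and 1 with DESeq2, and 0 and 0 with limma-voom. The genes in each of these counts, named after their values were seen, are the nuclear receptors Pparg (log2 fold change 1.39, edgeR adjusted p = 0.147) and Rxrg (1.67, edgeR adjusted p = 0.124) on the higher side and Cebpb (-0.99, edgeR adjusted p = 0.0536) on the lower side. Every AF sample lay above every Control sample in 3 of the 10, Pparg, Rxrg and Rxrb, beside 23.4% of all genes tested. In 1 of the 10, Cebpb, every AF sample lay below, beside 22.3%. Cebpa, a factor of adipocyte differentiation and the gene of this list with most counts, had 38.6, 24.3 and 22.6 normalized CPM in Control replicates 1, 2 and 3, and 34.4, 53.7 and 35.8 in AF replicates 1, 2 and 3. Another gene overlaps Cebpa, and shared reads cannot be told apart. The groups overlapped at Control replicate 1, and the log2 fold change was 0.41 ± 0.30 (SE), with an edgeR adjusted p of 0.435, 0.81 without Control replicate 1 and 0.18 without AF replicate 2.

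**Figure D2:**
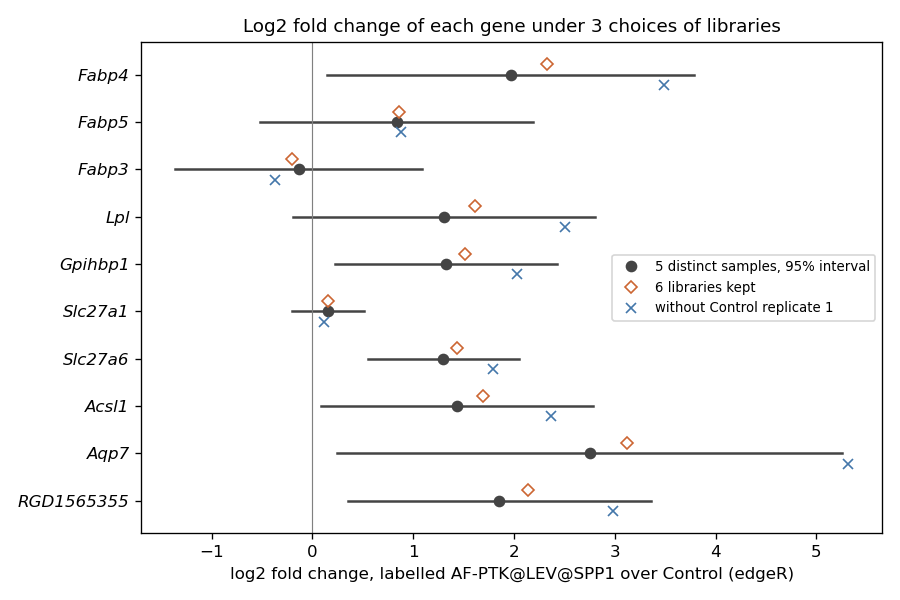
Log2 fold change of each gene, libraries labelled AF-PTK@LEV@SPP1 over Control, from edgeR. Filled circles with lines are the fit of 5 distinct samples with its 95% interval, open diamonds the fit of 6 libraries and crosses the fit without Control replicate 1. Leaving out Control replicate 1 moves Aqp7 from 2.75 to 5.32 and Fabp4 from 1.97 to 3.48. It moves Fabp3 from -0.14 to -0.37 and Slc27a1 from 0.15 to 0.12.

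The order of the samples was read for each gene. In 6 of the 9 genes, Fabp4, Lpl, Gpihbp1, Slc27a6, Acsl1 and Aqp7, the summed Control pair was lowest and Control replicate 1 next. AF replicate 2 was the highest sample in 6 of the 9 genes, AF replicate 3 in 2 and AF replicate 1 in 1. The median ratio of Control replicate 1 to the mean of the other Control libraries was 2.29-fold over the 9 genes.

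The genes most like each gene over the 5 samples were found by the root-mean-square (RMS) difference of centred log2 CPM, as a description. Lgals12, Klb and Abcd2 were nearest to Fabp4 (RMS 0.13, 0.15 and 0.15). Klhdc8a, Lifr and Acsl1 were nearest to Lpl (RMS 0.07, 0.12 and 0.13), and Rassf10, Eya4 and Lpl were nearest to Acsl1 (RMS 0.11, 0.13 and 0.13). Lpl and Acsl1 were thus each among the 3 nearest genes of the other. Fmo1, Stab2 and Slc6a2 were nearest to Aqp7 (RMS 0.13, 0.17 and 0.18), and an unnamed lncRNA, Pdzd2 and Fcer2 were nearest to Gpihbp1 (RMS 0.05, 0.06 and 0.08). Paqr6, Dgkb and Zfp483 were nearest to Slc27a6 (RMS 0.06, 0.07 and 0.09). The genes that did not separate the groups had other neighbours: Epb41l3, Osbp2 and RGD1359290 for Fabp5 (RMS 0.15, 0.15 and 0.17), Vom2r44, an unnamed pseudogene and Ebi3 for Fabp3 (RMS 0.09, 0.10 and 0.11), and an unnamed protein-coding gene, Rnf130 and Mccc1 for Slc27a1 (RMS 0.03, 0.04 and 0.04).

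Isoforms were compared within each sample as a log2 ratio of normalized CPM, each with 1 added, and tested with a two-sided exact permutation test on the absolute difference of means, which cannot go below p = 0.1 with 2 against 3 samples. Without gene lengths such a ratio does not say which gene of the pair is more abundant, and its differences between samples are what is read here. The ratio of Fabp4 to Fabp3, adipocyte over muscle type, was 5.60, 2.98 and 2.94 in Control replicates 1, 2 and 3, and 7.43, 6.67 and 6.18 in AF replicates 1, 2 and 3. All AF samples were above all Control samples, by 2.48 on the log2 scale (exact permutation p = 0.1), and by 3.80 without Control replicate 1. The ratio of Slc27a6 to Slc27a1 was -2.18, -2.69 and -3.29 in Control replicates 1, 2 and 3, and -1.42, -1.50 and -1.68 in AF replicates 1, 2 and 3. Here too the groups did not overlap, with a difference of 1.05 on the log2 scale (exact permutation p = 0.1), which was 0.68 with 5 normalized CPM added in place of 1.

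The ratio of Fabp4 to Fabp5 was 1.77, -0.37 and -0.36 in Control replicates 1, 2 and 3, and 1.38, 3.61 and 2.11 in AF replicates 1, 2 and 3. The groups overlapped, since Control replicate 1 lay above AF replicate 1, and the difference was 1.66 on the log2 scale (exact permutation p = 0.3), 2.73 without Control replicate 1 and 1.04 without AF replicate 2. The ratio of Lpl to Gpihbp1 was 5.03, 4.21 and 4.10 in Control replicates 1, 2 and 3, and 4.65, 5.12 and 4.99 in AF replicates 1, 2 and 3. Control replicate 1 lay among the AF samples, and the difference was 0.33 on the log2 scale (exact permutation p = 0.6), 0.77 without Control replicate 1 and 0.71 with 5 normalized CPM added in place of 1.

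Markers of the cell types a disc sample could hold were read in the same fit, because several of them differed between the libraries along with the fatty acid genes. Of the adipocyte markers, all 17 of 17 had positive log2 fold changes, with a median of 2.01 that ran from 1.49 without AF replicate 2 to 3.17 without Control replicate 1, and none was at 0 counts in all libraries. Their summed level was 1414, 347 and 347 normalized CPM in Control replicates 1, 2 and 3, and 3964, 4235 and 2497 in AF replicates 1, 2 and 3, with 66.8% of it from Car3, which muscle also expresses. edgeR on 5 samples called 0 of the 17, with 10 higher and 0 lower at an unadjusted p under 0.05, 5 higher with 6 libraries, 10 higher with DESeq2 and 0 with limma-voom. In 15 of the 17 every AF sample lay above every Control sample, beside 23.4% of all genes tested. The list was chosen with earlier results of these data known, so that this count is a description and no test. Among the 15, Adrb3 had 3, 1 and 2 counts in Control replicates 1, 2 and 3, and 18, 19 and 9 in AF replicates 1, 2 and 3. It passed the filter through AF libraries alone, so that its positive sign follows from the filter. Adipoq, a hormone that fat cells alone make in quantity, was chosen after its values were seen, and had 107, 10.5 and 10.1 normalized CPM in Control replicates 1, 2 and 3, and 300, 592 and 197 in AF replicates 1, 2 and 3.

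Ratios to these sums were chosen after the values were seen and are given without a test. The log2 ratio of Fabp4 to the summed adipocyte markers was -2.54, -2.82 and -2.68 in Control replicates 1, 2 and 3, and -2.85, -2.47 and -2.63 in AF replicates 1, 2 and 3. The groups overlapped with means of -2.65 and -2.65, and with Car3 left out of the sum the AF mean was higher by 0.18, again with overlap. Relative to Adipoq alone, the log2 ratio of Fabp4 was 1.17, 2.10 and 2.30 in Control replicates 1, 2 and 3, and 0.87, 0.36 and 1.03 in AF replicates 1, 2 and 3. On this ratio every AF sample lay below every Control sample, with a difference of -0.93, so that the course of Fabp4 relative to fat markers depends on the marker used. For Aqp7 the log2 ratio to the summed adipocyte markers, Car3 included, had means of -8.39 in Control and -8.47 in AF, with overlap. The Control mean rests on the 1 normalized CPM added, which exceeds the 0.131 and 0.311 of Aqp7 in Control replicates 2 and 3. Whether Aqp7 followed the fat markers therefore cannot be read from its ratio. On the same ratio to the summed markers, the AF samples of Lpl and Acsl1 lay below the Control samples, with means of -2.44 and -3.21 for Lpl and of -3.60 and -4.36 for Acsl1. The part of fat tissue in the levels of these genes was not tested.

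The summed skeletal muscle markers were high in AF replicates 2 and 3 alone. Of 24 listed, 22 were found and tested, all 22 with positive log2 fold changes and a median of 1.71, which ran from 0.56 without AF replicate 2 to 2.15 without AF replicate 1. Their summed level was 1870, 2428 and 2442 normalized CPM in Control replicates 1, 2 and 3, and 1675, 17702 and 4670 in AF replicates 1, 2 and 3, with 17.8% of it from Acta1, skeletal actin, and none was at 0 counts. AF replicate 2 was far above the others and AF replicate 1 was the lowest, so that the groups overlapped. edgeR on 5 samples called 0 of the 22, with 0 at an unadjusted p under 0.05, and 0 with 6 libraries, DESeq2 and limma-voom. The muscle type Fabp3 did not have this spread: its log2 ratio to the summed muscle markers was -8.55, -8.60 and -8.43 in Control replicates 1, 2 and 3, and -9.03, -11.20 and -9.72 in AF replicates 1, 2 and 3. Slc27a6 had 12.2 normalized CPM in AF replicate 1 and 12.6 in AF replicate 2, the libraries with the lowest and the highest muscle sum. The log2 ratio of Slc27a6 to the summed muscle markers had means of -8.48 in Control and -8.57 in AF, with overlap. The part of muscle in the levels of Fabp3 and Slc27a6 was not tested.

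The summed endothelial markers, read beside Gpihbp1, were lower in every AF library than in every Control library. Of 14 listed, 13 were tested, 2 with positive log2 fold changes and a median of -0.21, which was -0.37 without AF replicate 3. Their summed level was 908, 1134 and 1116 normalized CPM in Control replicates 1, 2 and 3, and 756, 835 and 851 in AF replicates 1, 2 and 3, with 20.6% of it from Pecam1 and none at 0 counts. edgeR on 5 samples called 0 of the 13, with 0 higher and 5 lower at an unadjusted p under 0.05, 5 lower with 6 libraries, 4 lower with DESeq2 and 0 with limma-voom. In 5 of the 13 every AF sample lay below every Control sample, beside 22.3% of all genes tested, and in 0 every AF sample lay above, beside 23.4%. The log2 ratio of Gpihbp1 to the endothelial sum was -6.92, -8.19 and -8.20 in Control replicates 1, 2 and 3. It was -5.77, -5.84 and -6.50 in AF replicates 1, 2 and 3, without overlap. The part of endothelial cells in the level of Gpihbp1 was not tested.

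Macrophage markers, read beside Fabp4, Fabp5 and Apoe, which macrophages also express, had positive log2 fold changes in 1 of 14, with a median of -0.81 that was -0.41 without Control replicate 1. Their summed level was 3319, 2272 and 2252 normalized CPM in Control replicates 1, 2 and 3, and 774, 2068 and 2069 in AF replicates 1, 2 and 3, with 57.9% of it from Lyz2 and none at 0 counts. AF replicate 1, the library with the highest Fabp5, had the lowest macrophage sum. edgeR on 5 samples called 3 lower, Cd68 (log2 fold change -1.97, adjusted p = 0.0231), Cd14 (-1.89, adjusted p = 0.0119) and Msr1 (-1.87, adjusted p = 0.0463), in 3 of 3 AF samples each. Of the 14, 6 were lower at an unadjusted p under 0.05, 4 were called lower with 6 libraries, 6 with DESeq2 and 3 with limma-voom, and Cd68, Cd14 and Msr1 were called by each of these. edgeR on 5 samples called 0 higher, as did edgeR with 6 libraries, DESeq2 and limma-voom, and 0 were higher at an unadjusted p under 0.05. Msr1 had an adjusted p of 0.0505 in the robust fit, in a range of 7.12e-06 to 0.162 over all alternatives. Without AF replicate 1, 2 and 3 the edgeR adjusted p was 0.0565, 0.0679 and 0.139 for Cd68, 0.0361, 0.0679 and 0.130 for Cd14, and 0.0854, 0.0645 and 0.162 for Msr1. Without Control replicate 1 it was 0.0571 for Cd68, 0.0272 for Cd14 and 0.102 for Msr1. The part of macrophages in the levels of Fabp4, Fabp5 and Apoe was not tested.

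Disc matrix markers were measured in every library. Together they had 26723, 40583 and 40391 normalized CPM in Control replicates 1, 2 and 3, and 50253, 35290 and 55140 in AF replicates 1, 2 and 3, with 55.1% of it from Col2a1 and none at 0 counts. Of 16 tested, 11 had positive log2 fold changes, with a median of 0.55 that ran from 0.19 without Control replicate 1 to 0.76 without AF replicate 2. edgeR on 5 samples called 2 higher, Chad (log2 fold change 2.93, adjusted p = 0.0454) and Cilp (2.69, adjusted p = 0.0221), in 3 of 3 AF samples each. Of the 16, 4 were higher at an unadjusted p under 0.05, 2 were called higher with 6 libraries, 4 with DESeq2 and 2 with limma-voom, and Chad and Cilp were called by each of these. edgeR on 5 samples called 0 lower, with 2 at an unadjusted p under 0.05, 1 with 6 libraries, 1 with DESeq2 and 0 with limma-voom. Without AF replicate 1, 2 and 3 the edgeR adjusted p was 0.0839, 0.0893 and 0.163 for Chad, and 0.0564, 0.0645 and 0.136 for Cilp, and without Control replicate 1 it was 0.0946 and 0.0666.

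Markers of nucleus pulposus or notochord and of marrow and blood cells also varied within and between the groups. The nucleus pulposus or notochord sum was higher in every AF library than in every Control library. Control replicate 1 lay between the groups, as for the adipocyte sum. Of 8 listed for nucleus pulposus or notochord, 6 were tested, all 6 with positive log2 fold changes and a median of 2.38, which ran from 1.71 without AF replicate 1 to 3.23 without Control replicate 1. Together they had 769, 333 and 326 normalized CPM in Control replicates 1, 2 and 3, and 4273, 1518 and 1804 in AF replicates 1, 2 and 3, with 43.0% of it from Cd24 and with Noto at 0 counts in every library. Shh had 0, 2 and 2 counts in Control replicates 1, 2 and 3, and 1, 16 and 31 in AF replicates 1, 2 and 3. It passed the filter through AF libraries alone, so that its positive sign follows from the filter. edgeR on 5 samples called 0 of the 6, with 4 higher and 0 lower at an unadjusted p under 0.05, 2 higher with 6 libraries, 4 higher with DESeq2 and 0 with limma-voom. With 6 libraries and a replicate block, the edgeR adjusted p was 0.0435 for Tbxt, 0.0286 for Krt8, 0.0318 for Krt18 and 0.0406 for Cd24. That fit counts Control replicates 2 and 3 as separate samples. On 5 samples the edgeR adjusted p of Cd24 was 0.0913, in a range of 0.00065 to 0.205 over all alternatives. Fabp5 and the summed nucleus pulposus or notochord markers were both highest in AF replicate 1.

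Of 14 listed for marrow and blood cells, 13 were tested, all 13 with positive log2 fold changes and a median of 2.64, which ran from 1.95 without AF replicate 2 to 5.78 without Control replicate 1. Their summed level was 1604, 617 and 635 normalized CPM in Control replicates 1, 2 and 3, and 641, 6068 and 5958 in AF replicates 1, 2 and 3, with 24.3% of it from Hbb, whose near-identical copies make its counts uncertain, and none at 0 counts. AF replicate 1 lay with the Control pair and the groups overlapped, while Fabp4, Lpl and Acsl1 were high in all AF libraries. edgeR on 5 samples called 0 of the 13, with 1 higher and 0 lower at an unadjusted p under 0.05, 0 with 6 libraries, 1 higher with DESeq2 and 0 with limma-voom. The part of these cells in the levels of the fatty acid genes was not tested.

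**Figure D3:**
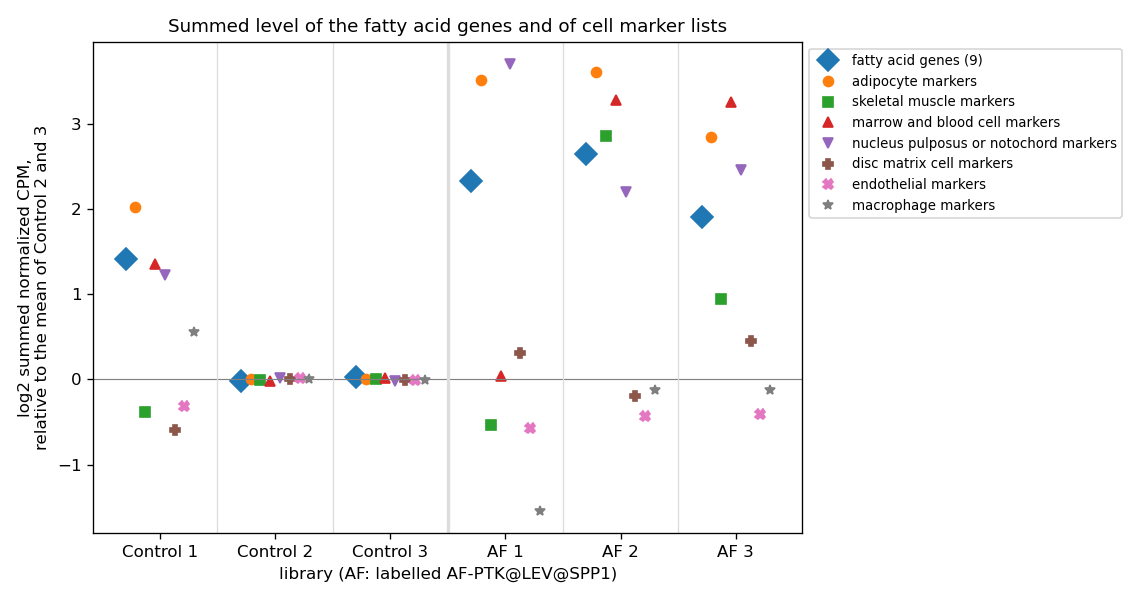
Summed normalized CPM of the 9 fatty acid genes and of each marker list in each library, as log2 relative to the mean of Control replicates 2 and 3 (AF: AF-PTK@LEV@SPP1). The sums of the fatty acid genes, the adipocyte markers and the nucleus pulposus or notochord markers are high in all AF libraries. In Control replicate 1 these sums lie between the groups. Fabp4 gives 40.5% of the sum of the fatty acid genes. The muscle sum is high in AF replicates 2 and 3 and low in AF replicate 1.

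Promoter sequences of 300 bases from RefSeq, assembly GRCr8, were held for 5 of the 10 genes, Fabp3, Cd36, Slc27a1, Slc27a6 and Acsl1. AGGTCA, the short element that nuclear receptors such as PPAR and RXR bind, was searched on both strands, and 16.2% of all 33469 promoters hold it. Of the 5, Slc27a1 alone holds it, as TGACCT at bases 9 to 14 of the window, and none of the 5 holds AGGTCA repeated with 1 base between, which 0.0538% of all promoters hold. A match describes letters in this window and no site. The promoters of the pair of transport proteins are shown because their levels took different courses, with this element in capitals, at chr16:18312717-18313016 (+) for Slc27a1 and chr18:54238797-54239096 (+) for Slc27a6.
Slc27a1: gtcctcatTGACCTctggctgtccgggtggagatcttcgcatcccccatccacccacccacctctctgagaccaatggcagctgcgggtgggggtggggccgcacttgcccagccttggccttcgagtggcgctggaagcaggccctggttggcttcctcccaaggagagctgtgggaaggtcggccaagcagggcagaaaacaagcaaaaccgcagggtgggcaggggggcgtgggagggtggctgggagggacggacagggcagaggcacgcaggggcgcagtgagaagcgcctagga
Slc27a6: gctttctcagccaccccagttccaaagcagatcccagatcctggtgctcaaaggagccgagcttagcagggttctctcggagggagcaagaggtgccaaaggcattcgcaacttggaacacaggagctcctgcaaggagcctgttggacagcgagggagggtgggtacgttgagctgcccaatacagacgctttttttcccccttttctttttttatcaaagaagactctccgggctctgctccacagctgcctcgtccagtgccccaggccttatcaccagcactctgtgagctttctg

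The other genes lie, in the coordinates of the deposited table, at chr5:142651956-142658718 (+) for Fabp3, chr16:20829465-20855249 (-) for Lpl, chr7:107285654-107288702 (+) for Gpihbp1, chr16:18278984-18296063 (+) for Slc27a1, chr18:52041074-52099414 (+) for Slc27a6, chr16:45755254-45821541 (-) for Acsl1, chr5:56172519-56186642 (-) for Aqp7 and chr4:17354466-17513903 (+) for RGD1565355. These coordinates and those of the promoters are of different annotations and are not to be compared.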

How the data were processed

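The authors deposited counts, the number of reads on each Ensembl rat gene in each library, without normalization. The submitters' processing notes name FastQC, Trimmomatic, HISAT2, featureCounts, DESeq2 and the build mm10, which is a mouse build; the sources used here do not give the build of the table, whether strand was used, or how shared reads were handled. Columns were matched to samples by name. In R 4.3.3, edgeR 4.0.16 was run with trimmed mean of M-values scaling, filterByExpr at a minimum count of 10 and its quasi-likelihood test with Benjamini-Hochberg adjustment over all genes tested, with Control replicates 2 and 3 summed. The common biological coefficient of variation was 0.302. Alternatives were the 6 libraries kept apart, a replicate block, other scalings, filters and a robust fit, DESeq2 1.42.0, limma-voom (limma 3.58.1) and each library left out. The code was tested on simulated data. A prior count of 2 was added before log2 CPM was taken. The genes and lists were chosen with earlier results of these data known. Genes named from the other lists are those that passed the test, at most 4 a list, or else the one with most counts, with the most abundant marker of each list. Others, such as Pparg, Rxrg, Cebpb and Adipoq, were named after their values were seen. Names that matched no gene name in the table (Cd36, Myh1, Myot, Cldn5, Krt19, Hba-a2) were not analysed here.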

Additional observations from a re-analysis of the deposited data

How the results depend on the processing

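In the fits of the 9 fatty acid genes under 15 alternatives, 127 of 135 values kept their direction and their side of the threshold, 7 passed it only under DESeq2 or with 6 libraries, and 1 changed direction: Fabp3, at 0.15 without AF replicate 1, in a leave-one-out range of -0.52 to 0.15. Cav1 turned to -0.0019 without Control replicate 1 and to -0.0734 without AF replicate 1, in a range of -0.0734 to 0.38. The cause was not tested. With 6 libraries edgeR called 1233 genes higher and 1494 lower, 2 of the fatty acid genes among those higher. DESeq2 on 5 samples called 1079 higher and 1420 lower, with 5 of the fatty acid genes among those higher. The median log2 fold change of the 9 genes was 1.52 with 6 libraries and 1.47 with limma-voom. Without each library in turn, the genes called higher numbered 0 to 170 and those lower 0 to 396, and the median ran from 1.16 to 2.03. Whether the replicate numbers pair the rats was not given in the sources used here. Correlations of same-numbered deviations were -0.33, -0.28 and -0.08. They cannot decide it, because the Control libraries that were summed are nearly identical and so have nearly the same deviations. With 6 libraries and a replicate block, edgeR called 307 genes higher and 434 lower, 0 of the 9 fatty acid genes (2 with 6 libraries and no block, 5 with DESeq2), and their median was 1.599; with this replicate block the adjusted p was 0.0545 for Apoc1 and 0.0504 for Chad, in ranges of 0.00486 to 0.162 and 1.90e-09 to 0.163 over all alternatives. Without Control replicate 1, the lone Control sample is the summed pair, assumed to vary as the AF samples do. Depth limits Aqp7, Gpihbp1, Fabp3 and Slc27a6, which had at most 228 counts in any library.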
